A study of Homo sapiens with 4 samples.

Results

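The human mitochondrial chromosome carries 37 genes, which are 2 rRNA genes, 13 mRNA genes and 22 tRNA genes. All 37 were found among the 67008 genes of the count table, by matching gene identifiers to the genes that the GENCODE 29 annotation places on the mitochondrial chromosome of GRCh38. The levels of these genes were compared between SAS cells with an shRNA against luciferase (Ctrl, 2 libraries) and SAS cells with an shRNA against STAU1 (shSTAU1, 2 libraries). SAS is a tongue squamous carcinoma line, and both groups were labeled wild type and infected with virus to deliver the shRNA. The cell line field of the labels reads C3H 10T1/2, a mouse fibroblast line, whereas the organism is given as human, the cell type as oral cancer and the cultured cells as SAS. No time after infection was given, each group rests on a single shRNA, and nothing stated that the libraries came from separate cultures. The p-values therefore measure only the spread between these libraries, which may be technical. Libraries were made from total RNA with a TruSeq RNA Exome kit, which enriches fragments with probes against coding exons. Whether the probes cover mitochondrial genes is not given in the sources used here, so capture and abundance cannot be told apart when levels of different genes are compared.

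Mitochondrial DNA is transcribed from both strands into long RNAs that span many genes. In most places a tRNA sits between neighboring mRNAs or rRNAs, and enzymes cut the tRNAs out at both ends, which frees the RNAs in between. The rRNAs build the mitochondrial ribosome, the tRNAs read its codons, and the mRNAs encode core subunits of the respiratory chain and the ATP synthase. STAU1 is a protein that binds double-stranded RNA and takes part in the transport, translation and decay of mRNAs made in the nucleus.

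Where mRNA genes of the mitochondrial chromosome overlap, a read can belong to both, so these places are shown first. They are printed from the GENCODE 29 transcripts, with shared bases in capitals. MT-ATP8 (chrM:8366-8572, plus strand) shares its last 46 bases with MT-ATP6. MT-ND4L and MT-ND4 share 7 bases, shown from chrM:10737-10789, and MT-ATP6 and MT-CO3 share 1 base, shown from chrM:9178-9236, both on the plus strand. MT-ND5 and MT-ND6 also meet with no tRNA between them, on opposite strands and with no shared base, and are not printed.
MT-ATP8: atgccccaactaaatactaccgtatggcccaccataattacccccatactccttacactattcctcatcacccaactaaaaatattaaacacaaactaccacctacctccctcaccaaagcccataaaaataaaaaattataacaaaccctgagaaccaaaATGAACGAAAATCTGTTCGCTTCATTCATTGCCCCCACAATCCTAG
MT-ND4L to MT-ND4: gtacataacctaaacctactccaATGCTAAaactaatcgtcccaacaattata
MT-ATP6 to MT-CO3: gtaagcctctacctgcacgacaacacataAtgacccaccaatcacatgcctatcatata

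The libraries held from 32206655 to 36301574 counts, and 14303 genes passed the filter on low counts and were tested. The targeted gene, STAU1, had 248.7 and 251 CPM in Ctrl against 41.6 and 41.5 CPM in shSTAU1, where CPM is the count scaled to library size with TMM factors. Its log2 fold change was -2.59 with a standard error of 0.13, and edgeR's quasi-likelihood test gave an adjusted p of 0.00103. All 10 markers of squamous epithelium had a mean of at least 1 CPM, and together they ran from 7155 to 7594 CPM in Ctrl and from 8723 to 11377 CPM in shSTAU1. The 7 fibroblast markers summed to 17.5 to 22.1 CPM in Ctrl and 9.99 to 10.4 CPM in shSTAU1 with THY1 at 0 counts, and the 3 endothelial markers to 15.3 to 18.0 CPM and 7.44 to 17.0 CPM. The 4 leukocyte markers summed to at most 0.28 CPM, with CD68 at 0 counts. The part of these differences in the values below was not tested.

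After STAU1 knockdown, no mitochondrial gene passed the test, which compared the groups without regard to replicate numbers. All 13 mRNA genes and both rRNA genes were abundant enough to be tested, and none of the 22 tRNA genes was. Of the 15 tested genes, 0 had an adjusted p under 0.05, against 2.60% of all tested genes. An unadjusted p under 0.05 was found for 4 of them, MT-RNR2, MT-ND4, MT-ND5 and MT-ATP8, against 24.5% of all tested genes. The fitted log2 fold change was below 0 for 11 genes and above 0 for 4, which were MT-ATP8, MT-ATP6, MT-CO3 and MT-CYB. Over all tested genes it was below 0 for 7092 and above 0 for 7211. The median over the 15 genes was -0.44, where that over all tested genes was 0.0059. Over the tested mitochondrial genes this median was 0.15 without Ctrl replicate 1 and -0.84 without Ctrl replicate 2. It was -0.73 without shSTAU1 replicate 1 and -0.13 without shSTAU1 replicate 2. The number of mitochondrial genes that passed also changed with the library left out. In these fits the lone library of a group is assumed to vary like the others. DESeq2 placed 1 of the 15 genes, MT-ND5, under the same threshold, against 10.1% of all tested genes. For a value taken alone, the smallest two-sided p that an exact permutation test allows with 2 libraries against 2 is 0.33.

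**Figure D1:**
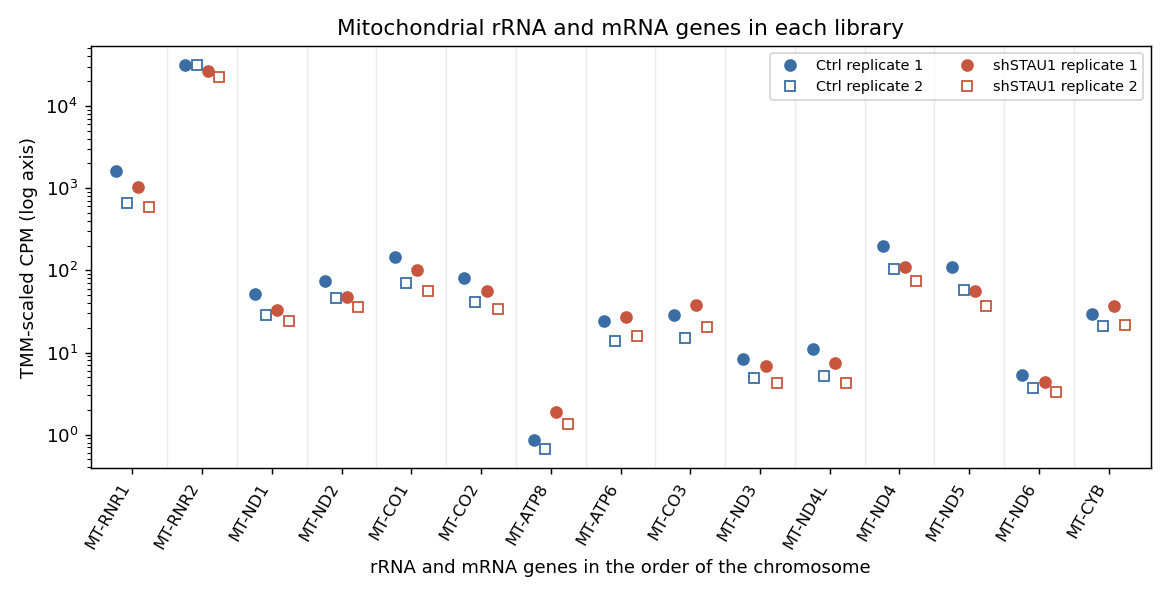
TMM-scaled CPM (log axis) of the 2 rRNA and 13 mRNA genes, in the order of the chromosome, with 1 point per library (filled, replicate 1; open, replicate 2). MT-RNR2 lies between 22223 and 31312 CPM, every mRNA gene lies under 199 CPM, and the replicate 1 library lies above the replicate 2 library of its group for each gene.

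The 37 genes together held 3.43% of all counts in Ctrl replicate 1 and 3.26% in Ctrl replicate 2, and 2.80% and 2.25% in shSTAU1 replicates 1 and 2. Their 95% Wilson intervals, which cover counting error only, ran from 3.43% to 3.44%, from 3.25% to 3.27%, from 2.79% to 2.80% and from 2.25% to 2.26%. The mean share was 3.35% ± 0.12 in Ctrl and 2.53% ± 0.39 in shSTAU1 (SD, n = 2 each), and both shSTAU1 libraries lay below both Ctrl libraries. This is a share of all counts, so a change in mitochondrial RNA and a change in the other RNA cannot be told apart. In these bulk samples, neither can fewer mitochondria and less RNA in each. Nearly all of this signal came from MT-RNR2, which took from 92.9% to 96.6% of the counts on the 37 genes. The mRNA genes held 0.0782% and 0.0421% of all counts in Ctrl and 0.0519% and 0.0323% in shSTAU1, and here the groups overlapped.

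MT-RNR2 (ENSG00000210082.2, chrM:1671-3229, plus strand) encodes the 16S rRNA of the large subunit of the mitochondrial ribosome. It had 31312 and 30988 CPM in Ctrl and 26717 and 22223 CPM in shSTAU1, the highest level of any gene in the table. Both shSTAU1 libraries were below both Ctrl libraries, as were those of 28.0% of all tested genes. The log2 fold change was -0.35 (standard error 0.13), and edgeR's quasi-likelihood test gave an adjusted p of 0.150 and an unadjusted p of 0.0273. MT-RNR1 (ENSG00000211459.2, chrM:648-1601, plus strand) encodes the 12S rRNA of the small subunit. It had 1635 and 663 CPM in Ctrl and 1045 and 593 CPM in shSTAU1, so the groups overlapped (log2 fold change -0.49, standard error 0.41, adjusted p = 0.491). Its log2 fold change was 0.30 without Ctrl replicate 1.

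Both rRNAs are copied from the same strand and are separated by MT-TV alone, yet their levels differed widely. Per base, the counts on MT-RNR2 were 11.7 and 28.6 times those on MT-RNR1 in Ctrl and 15.7 and 22.9 times in shSTAU1. Relative to the mRNA genes, MT-RNR1 varied less. It had 2.13 and 1.60 counts for each count on the 13 mRNA genes in Ctrl, and 1.99 and 1.79 in shSTAU1. The CPM in replicate 1 divided by that in replicate 2 was 1.01 in Ctrl and 1.20 in shSTAU1 for MT-RNR2, and 2.46 and 1.76 for MT-RNR1.

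A gap between libraries of one group ran through all 13 mRNA genes. The CPM in Ctrl replicate 1 was from 1.28 (MT-ATP8) to 2.13 (MT-ND4L) times that in Ctrl replicate 2. The CPM in shSTAU1 replicate 1 was from 1.33 (MT-ND2) to 1.89 (MT-CO3) times that in shSTAU1 replicate 2. The median ratio over all tested genes was 1.00 in both groups. In both groups the ratio exceeded 1.5 for 7 of the 13 mRNA genes, and for 4.41% of all tested genes. This spread lies beside every fold change below, and its origin was not tested.

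The 7 mRNA genes of complex I, the NADH dehydrogenase that feeds electrons into the chain, all had fitted log2 fold changes below 0, from -0.85 to -0.23. MT-ND5 (ENSG00000198786.2, chrM:12337-14148) encodes a large proton-pumping subunit of its membrane arm. It had 110.4 and 58.2 CPM in Ctrl and 56.6 and 36.9 CPM in shSTAU1. Both shSTAU1 libraries lay below both Ctrl libraries for 28.0% of all tested genes. MT-ND5 was the only such mRNA gene, by a narrow margin between shSTAU1 replicate 1 and Ctrl replicate 2. Its log2 fold change was -0.85 with a standard error of 0.31. The adjusted p was 0.151 in edgeR, 0.0223 in DESeq2 and up to 0.306 in the other fits that used all libraries and no replicate number. The log2 fold change was -0.32 without Ctrl replicate 1 and -1.24 without Ctrl replicate 2.

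MT-ND4 (ENSG00000198886.2, chrM:10760-12137), which encodes another proton-pumping subunit, had 198.9 and 105.1 CPM in Ctrl and 110.2 and 74.8 CPM in shSTAU1. Here shSTAU1 replicate 1 lay just above Ctrl replicate 2, so the groups overlapped (log2 fold change -0.72, standard error 0.30, adjusted p = 0.197). This value was -0.19 without Ctrl replicate 1 and -1.10 without Ctrl replicate 2. MT-ND4L, whose last bases are the first of MT-ND4, had 10.9 and 5.13 CPM in Ctrl and 7.35 and 4.24 CPM in shSTAU1. Its log2 fold change of -0.47 (standard error 0.41) was 0.17 without Ctrl replicate 1.

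The other complex I genes overlapped between the groups as well. MT-ND1, a subunit next to the site where quinone binds, had 50.9 and 28.8 CPM in Ctrl and 32.5 and 24.1 CPM in shSTAU1 (log2 fold change -0.49, standard error 0.28, adjusted p = 0.312). MT-ND2 had 74.7 and 45.8 CPM against 47.1 and 35.6 CPM (log2 fold change -0.54, standard error 0.25, adjusted p = 0.226). In the absence of Ctrl replicate 1 these log2 fold changes were -0.03 and -0.15, and without Ctrl replicate 2 they were -0.84 and -0.85. MT-ND3 had 8.30 and 4.89 CPM in Ctrl and 6.78 and 4.30 CPM in shSTAU1, a log2 fold change of -0.25 (standard error 0.35) that was 0.17 without Ctrl replicate 1 and 0.029 without shSTAU1 replicate 2. MT-ND6 (chrM:14149-14673), the only one of the 13 on the minus strand, had 5.35 and 3.67 CPM against 4.39 and 3.28 CPM. Its log2 fold change was -0.23 (standard error 0.32), and 0.06 without Ctrl replicate 1. Whether reads were counted by strand is not given in the sources used here, so RNA from the opposite strand cannot be told apart from that of MT-ND6.

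The 3 mRNA genes of complex IV, the cytochrome c oxidase that passes electrons to oxygen, did not share a direction. MT-CO1 (chrM:5904-7445), the subunit that holds the catalytic heme and copper center, had 145.6 and 69.9 CPM in Ctrl and 99.99 and 56.3 CPM in shSTAU1 (log2 fold change -0.46, standard error 0.36, adjusted p = 0.467). MT-CO2, which accepts electrons from cytochrome c, had 79.8 and 41.4 CPM against 56.2 and 33.4 CPM (log2 fold change -0.44, standard error 0.34, adjusted p = 0.457). Without Ctrl replicate 1 these values were 0.15 and 0.11. MT-CO3 (ENSG00000198938.2, chrM:9207-9990) had 28.6 and 15.2 CPM in Ctrl and 38.0 and 20.2 CPM in shSTAU1. Its groups overlapped, and its log2 fold change of 0.41, which had a standard error of 0.36 and an adjusted p of 0.522, was -0.11 without shSTAU1 replicate 1 and 0.93 without Ctrl replicate 1.

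MT-ATP8 and MT-ATP6 encode membrane subunits of complex V, the ATP synthase, and MT-CYB encodes cytochrome b, the only mitochondrially encoded subunit of complex III. MT-ATP8 (ENSG00000228253.1) was the least abundant mRNA gene, with 29 and 22 counts in Ctrl and 66 and 48 counts in shSTAU1. Both shSTAU1 libraries were above both Ctrl libraries, as were those of 28.5% of all tested genes. In CPM it had 0.86 and 0.67 in Ctrl and 1.90 and 1.36 in shSTAU1, and its fitted difference was 1.08 in log2 (standard error 0.45, adjusted p = 0.191), which stayed between 0.83 and 1.29 when each library was left out. MT-ATP6 had 23.9 and 13.8 CPM in Ctrl and 26.7 and 15.7 CPM in shSTAU1 (log2 fold change 0.17, standard error 0.33, adjusted p = 0.785). MT-CYB (chrM:14747-15887) had 29.6 and 21.2 CPM against 36.9 and 21.5 CPM (log2 fold change 0.20, standard error 0.28, adjusted p = 0.694). The groups of both overlapped, and without shSTAU1 replicate 1 their log2 fold changes were -0.26 and -0.23. Without Ctrl replicate 2 they were -0.17 and -0.02.

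**Figure D2:**
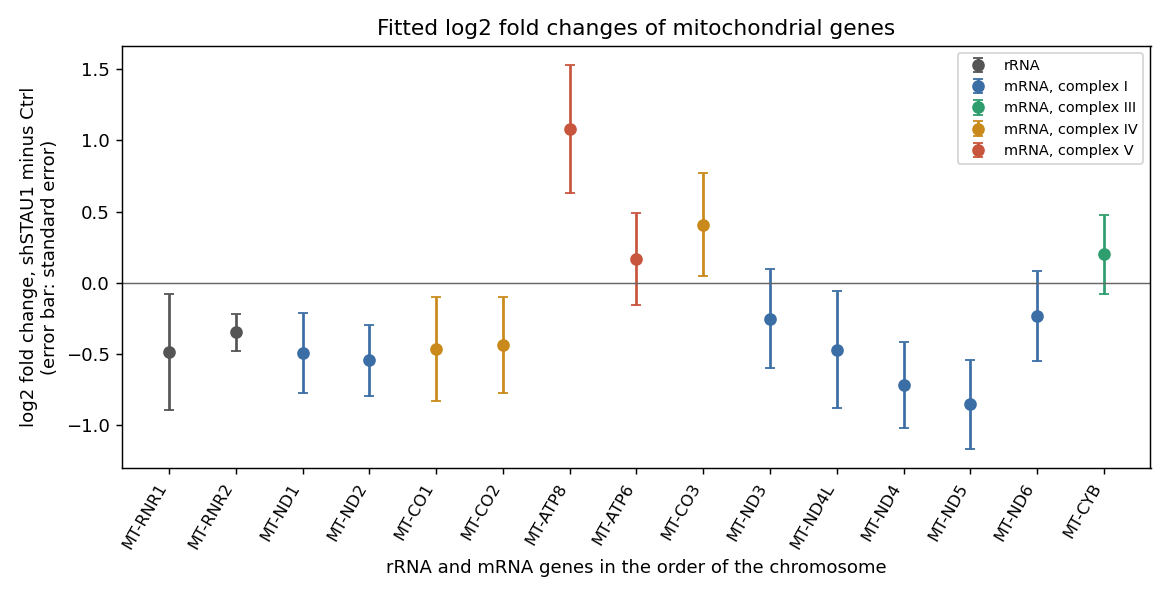
Fitted log2 fold change of shSTAU1 against Ctrl for the 15 tested mitochondrial genes in the order of the chromosome, with the standard error as the bar and the color giving the respiratory complex. Values above 0 are those of MT-ATP8, MT-ATP6, MT-CO3 and MT-CYB. The lowest is that of MT-ND5 at -0.85, and no gene has an adjusted p under 0.05.

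The gap between replicates was common to the mRNA genes, so their counts were also expressed as a percent of the counts on the 13 mRNA genes of the same library, a scale chosen for description and given no test. On this scale a lower share of abundant genes raises the share of the others. MT-ND5 was at 14.4% and 14.1% in Ctrl and at 10.8% and 11.1% in shSTAU1. MT-ND4, the largest, was at 25.9% and 25.4% in Ctrl and 21.0% and 22.6% in shSTAU1. For both genes the gap between groups was wider than that between libraries of a group.

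MT-CO3 was at 3.73% and 3.68% in Ctrl and at 7.25% and 6.09% in shSTAU1, a difference of 0.85 in log2. MT-ATP6 was at 3.12% and 3.34% in Ctrl and at 5.09% and 4.74% in shSTAU1, a difference of 0.61 in log2. MT-ATP8 was at 0.11% and 0.16% in Ctrl and at 0.36% and 0.41% in shSTAU1, a difference of 1.49 in log2. These 3 genes lie side by side with no tRNA between them, as the printed junction of MT-ATP6 and MT-CO3 shows. MT-CYB, which is not their neighbor, was at 3.85% and 5.12% in Ctrl and at 7.02% and 6.48% in shSTAU1. The shares of MT-CO1, MT-CO2, MT-ND1, MT-ND2, MT-ND4L and MT-ND6 overlapped between the groups, and MT-ND3 was slightly higher in shSTAU1, at 1.29% and 1.30% against 1.08% and 1.18%. The groups were thus apart for 7 of the 13 genes on this scale, 5 higher and 2 lower. On the CPM scale the groups were apart for 56.6% of all tested genes and for 2 of these 13. The 7 of 13 is on another scale, without a share over all tested genes, so it cannot be set against the 56.6%.

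**Figure D3:**
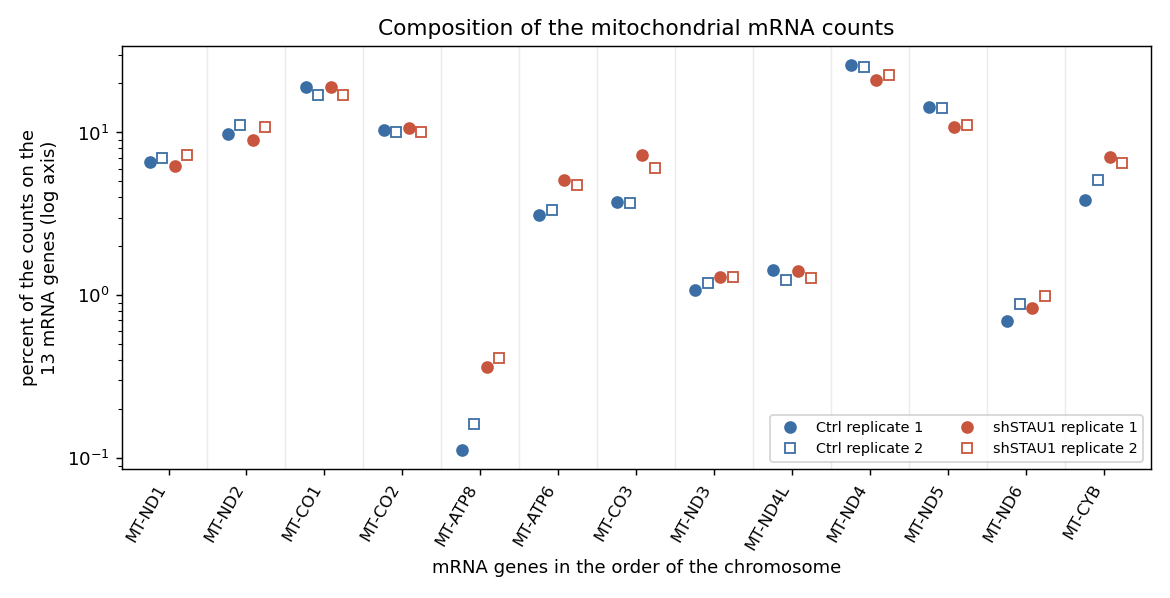
Percent of the counts on the 13 mitochondrial mRNA genes (log axis) taken by each gene, with 1 point per library (filled, replicate 1; open, replicate 2). Both shSTAU1 points lie above both Ctrl points for MT-ATP8, MT-ATP6, MT-CO3, MT-ND3 and MT-CYB, and below them for MT-ND4 and MT-ND5.

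The order of the genes by this difference was much the same in either pair of libraries. For all 13 genes, the ratio of shSTAU1 to Ctrl CPM lay on the same side of 1 in the libraries numbered 1 and 2. This agreement depends on pairing by number, since in CPM the groups overlapped for 11 of the 13 genes. Over the 13 genes the ratios of these pairs had a Pearson's r of 0.97 and a Spearman's rho of 0.95 in log2. The labels number the libraries in sets of 1 Ctrl and 1 shSTAU1 library and do not say what a set shares. Genes are not replicates, and the 13 share their libraries and, on each strand, their precursors. Expressed as a sum, the counts on MT-ATP8, MT-ATP6 and MT-CO3 relative to those on MT-ND4 and MT-ND5 were at -2.53 and -2.46 in log2 in Ctrl and at -1.32 and -1.58 in shSTAU1. These 5 genes were picked after their values were seen. MT-CYB had 0.27 and 0.36 counts for each count on MT-ND5 in Ctrl and 0.65 and 0.58 in shSTAU1.

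The log2 fold changes of the 13 genes followed position and base composition weakly and level more. Spearman's rho over the 13 genes was 0.10 with the position on the chromosome, -0.12 with GC content, which ran from 39.6% (MT-ATP8) to 47.7% (MT-ND1), -0.56 with length and -0.69 with the mean CPM. These are descriptions over genes that overlap, share precursors and came from the same libraries, and the shortest gene, MT-ATP8, is also the least abundant.

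Per kilobase of gene length, MT-ND4 was the highest mRNA gene in Ctrl, with a mean of 110.3 CPM per kb, followed by MT-CO2 with 88.6, MT-CO1 with 69.9, MT-ND2 with 57.8, MT-ND5 with 46.5 and MT-ND1 with 41.7. MT-CO3, MT-ATP6, MT-ND4L, MT-CYB and MT-ND3 lay from 28.0 down to 19.1, and MT-ND6 and MT-ATP8 were lowest at 8.59 and 3.71. In shSTAU1 MT-ND4 had 67.1 CPM per kb and MT-CO2 65.5. MT-ND5 had a mean of 25.8 there, below MT-CO3 with 37.1 and MT-ATP6 with 31.1, which it had exceeded in Ctrl. The shSTAU1 libraries of MT-ND5 were at 31.2 and 20.3, and overlapped those of MT-CO3 (48.5 and 25.7) and MT-ATP6 (39.2 and 23.1). In Ctrl the libraries of MT-ND5 overlapped those of both genes as well. The ranges over the 2 libraries overlapped for each pair of neighbors in the Ctrl order down to MT-ND3; those of MT-ND3 and MT-ND6, and of MT-ND6 and MT-ATP8, did not. MT-RNR1 and MT-RNR2 had means of 1204 and 19981 CPM per kb in Ctrl.

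The 22 tRNA genes together held 29 and 8 counts in Ctrl and 15 and 8 counts in shSTAU1. Of these genes, 11 had no count in any library and 11 had at least 1. A count of 0 allows up to 3 counts, which is 0.085 to 0.092 CPM in these libraries. Libraries of long RNA after capture hold few tRNA reads, and no difference between groups was detectable at this depth. MT-TP, the gene of the proline tRNA, had the most, with 12 and 5 counts in Ctrl and 3 and 5 counts in shSTAU1, so that the replicate 2 libraries of both groups had the same count. Besides MT-TP, MT-TW, the gene of the tryptophan tRNA, was the only one with a count in each library, with 2 and 1 in Ctrl and 1 and 1 in shSTAU1. Both genes are shown from the GENCODE 29 transcripts with the anticodon in capitals, MT-TP from chrM:15956-16023 on the minus strand and MT-TW from chrM:5512-5579 on the plus strand. The anticodon was located as the middle of a loop of 7 bases closed by 5 pairs, of which at least 4 could form.
MT-TP: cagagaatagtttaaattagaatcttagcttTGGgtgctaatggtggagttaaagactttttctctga
MT-TW: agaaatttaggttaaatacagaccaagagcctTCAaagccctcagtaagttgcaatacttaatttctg

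The tRNA genes are split by strand here as a description, without a test. Whether reads were counted by strand is not given in the sources used here, so RNA of the opposite strand cannot be told apart. Of the 8 on the minus strand, 6 had a count, with 22 and 7 counts in Ctrl and 10 and 6 in shSTAU1. Of the 14 on the plus strand, 5 had a count, with 7 and 1 counts in Ctrl and 5 and 2 in shSTAU1. MT-TF, MT-TL1, MT-TI, MT-TW and MT-TT on the plus strand and MT-TQ, MT-TA, MT-TY, MT-TS1, MT-TE and MT-TP on the minus strand had at least 1 count, and outside MT-TP no tRNA gene had more than 6 counts over the 4 libraries. MT-TV, MT-TM, MT-TN, MT-TC, MT-TD, MT-TK, MT-TG, MT-TR, MT-TH, MT-TS2 and MT-TL2 had none.

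**Figure D4:**
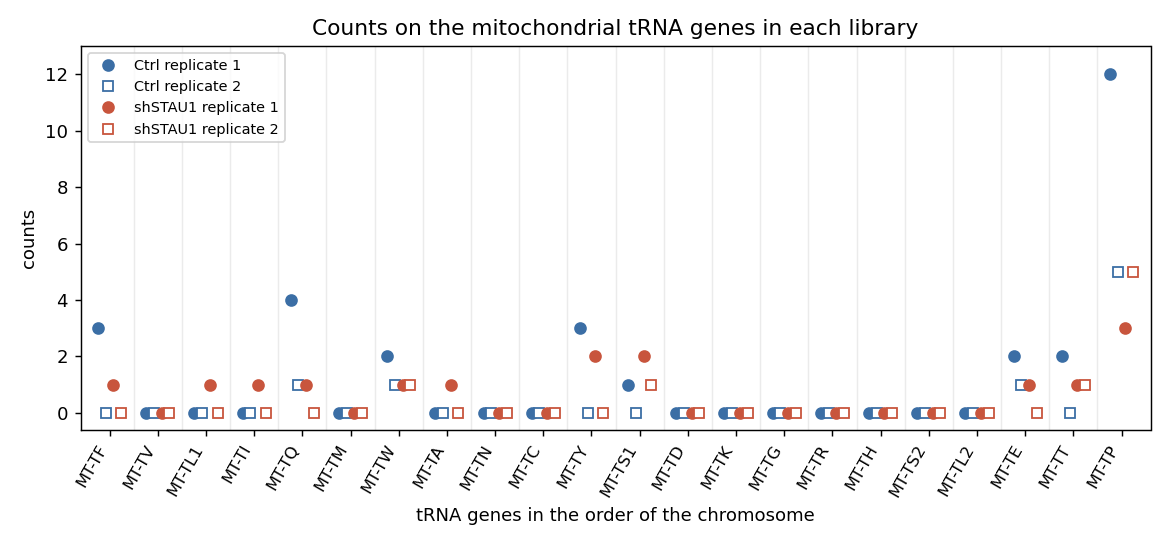
Counts on the 22 mitochondrial tRNA genes in the order of the chromosome, with 1 point per library (filled, replicate 1; open, replicate 2). MT-TP reaches 12 counts in Ctrl replicate 1, and no other gene exceeds 4 counts in a library.

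Copies of mitochondrial sequence in the nuclear genome can take reads of the mitochondrial genes, or lend reads to them. The table lists 417 such copies by their symbols, of which 36 had a count, and together they held 272 and 160 counts in Ctrl and 214 and 135 counts in shSTAU1. MTATP6P1, a copy of MT-ATP6, had 88 and 44 counts in Ctrl and 115 and 58 in shSTAU1, and MTND2P28, a copy of MT-ND2, had 43 and 20 against 28 and 25. The 13 MTRNR2L genes, copies of MT-RNR2, held 106 and 73 counts in Ctrl and 58 and 35 in shSTAU1, led by MTRNR2L2, with 33 and 43 counts against 23 and 23, and MTRNR2L12, with 43 and 14 against 18 and 9. MTRNR2L8 followed with 18 and 13 counts in Ctrl and 12 and 2 in shSTAU1. None of the 5 copies that were tested passed, with adjusted p from 0.336 to 0.750. How reads that match several places were counted is not given in the sources used here, so the counts of these copies and of their mitochondrial parents are uncertain.

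Nuclear genes that make, cut, modify and degrade mitochondrial RNA were read from the same fit. Of 61 such genes, 59 were tested and 0 passed, with 11 at an unadjusted p under 0.05, of which 9 had log2 fold changes above 0 and 2 below, against 24.5% of all tested genes. With DESeq2, 5 passed, against 10.1% of all tested genes, which were TFB2M, GRSF1, TOP1MT and SLIRP with higher values and METTL15 with a lower one. Their median log2 fold change was 0.09. It was -0.0078 without Ctrl replicate 1, with 0 genes passing, and without shSTAU1 replicate 2 it was -0.066 and 6 of 60 genes passed, against 14.5% of all tested genes. Without shSTAU1 replicate 1 it was 0.20 and 9 of 60 genes passed, against 18.5%.

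For transcription, TFB2M, which opens the promoter, had 19.5 and 19.1 CPM in Ctrl and 29.99 and 36.9 CPM in shSTAU1 (log2 fold change 0.79, standard error 0.17, adjusted p = 0.0568). TFAM, which binds and packages mitochondrial DNA, had 211.5 and 218.9 CPM against 245.5 and 327.3 CPM (log2 fold change 0.41, standard error 0.16, adjusted p = 0.167). The log2 fold change of POLRMT, the RNA polymerase itself, was -0.01 (standard error 0.16), and that of TEFM, its elongation factor, was 0.14 (standard error 0.26). So TFB2M and TFAM lay higher in both shSTAU1 libraries, as did 28.5% of all tested genes, without passing. POLRMT and TEFM overlapped between the groups.

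For the cutting of the long transcripts, ELAC2, which cuts at the 3' ends of tRNAs, was at 0.10 in log2 fold change (standard error 0.18), and TRMT10C, a subunit of the enzyme that cuts at their 5' ends, had 0.30 (standard error 0.19). PRORP, the nuclease of that enzyme, was too low to be tested, with 0.51 and 0.27 CPM in Ctrl and 0.11 and 0.25 CPM in shSTAU1. FASTKD5, which is known to be needed for cuts at junctions without a tRNA, had 34.9 CPM in both Ctrl libraries and 23.8 and 26.9 CPM in shSTAU1. Its log2 fold change was -0.46, with a standard error of 0.15 and an adjusted p of 0.127. For this gene, as for 28.0% of all tested genes, both shSTAU1 libraries were below both Ctrl libraries. FASTKD2, which acts on the 16S rRNA, had -0.05 (standard error 0.15).

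Among factors for stability and decay, LRPPRC, which together with SLIRP holds mitochondrial mRNAs, had 1598 and 1650 CPM in Ctrl and 1986 and 1829 CPM in shSTAU1 (log2 fold change 0.23, standard error 0.12, adjusted p = 0.268). SLIRP had 131.1 and 138.4 CPM against 169.1 and 234.8 CPM (log2 fold change 0.58, standard error 0.17, adjusted p = 0.0968). GRSF1, an RNA granule protein, had 116.2 and 109.9 CPM against 158.5 and 161.9 CPM (log2 fold change 0.50, standard error 0.12, adjusted p = 0.0685). These 3 genes were higher in both shSTAU1 libraries, as were 28.5% of all tested genes, and none passed. The poly(A) polymerase MTPAP had 0.36 (standard error 0.13, adjusted p = 0.146), the helicase SUPV3L1 had 0.31 (standard error 0.14, adjusted p = 0.210), and PNPT1, the exonuclease that works with it, had -0.03 (standard error 0.15). MTPAP and SUPV3L1 were also higher in both shSTAU1 libraries, whereas PNPT1 overlapped between the groups.

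The mitochondrial mRNAs encode only part of their complexes, and the nuclear partners had a different median. Of 155 nuclear genes for subunits of complexes I, III, IV and V and for the mitochondrial ribosome, 139 were tested. Of these, 124 had a log2 fold change above 0, against 7211 of all 14303 tested genes. The median over the 139 genes was 0.34, where that over all tested genes was 0.0059. Without shSTAU1 replicate 2 the median of the tested partners was 0.16. Nuclear genes were grouped by symbol, which placed NDUFA4 in complex I and not in complex IV. The medians were 0.33 for 33 nuclear genes so grouped in complex I and -0.49 for the 7 mitochondrial ones. For complex IV they were 0.29 over 11 nuclear genes and -0.44 over the 3 mitochondrial ones. For complex III it was 0.41 over 8 nuclear genes beside 0.20 for MT-CYB. For complex V it was 0.47 over 17 nuclear genes beside 0.62 over MT-ATP8 and MT-ATP6. This 0.62 is the midpoint of 1.08 for MT-ATP8, the least abundant mRNA gene, and 0.17 for MT-ATP6. As a share of all counts, the sum of these 2 genes had a ratio of shSTAU1 to Ctrl of 1.12, and the groups overlapped. The 70 tested genes of the mitochondrial ribosome had a median of 0.31. Without Ctrl replicate 1 the medians of the mitochondrial genes were -0.03 for complex I and 0.15 for complex IV, and without shSTAU1 replicate 1 that for complex V was 0.29. These medians were not tested against each other.

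Of the 139 partners, 5 passed the test, 4 of them higher and 1 lower, against 2.60% of all tested genes. ATP5ME rose from 46.8 and 44.8 CPM to 76.8 and 78.0 CPM, UQCRB from 197.1 and 225.0 CPM to 333.6 and 371.8 CPM, NDUFA1 from 40.1 and 36.4 CPM to 64.5 and 70.4 CPM, and NDUFB1 from 36.8 and 34.6 CPM to 56.7 and 69.3 CPM. Their log2 fold changes ran from 0.74 to 0.82 with standard errors from 0.13 to 0.16. Their adjusted p ran from 0.0360 to 0.0427. The number of partners that passed changed with the library left out. Over the tested partners, the median log2 fold change was 0.32 without Ctrl replicate 1 and 0.37 without Ctrl replicate 2. It was 0.45 without shSTAU1 replicate 1 and 0.16 without shSTAU1 replicate 2.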

How the data were processed

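Total RNA of 4 libraries of SAS cells was sequenced after exome capture, and the authors deposited whole-number counts per gene without normalization. The submitters' processing notes name Partek and hg38. The aligner, its version, the counting program and its strand setting are not given in the sources used here. Every row had an identifier, and no sample column was left unmapped. All 37 mitochondrial identifiers equal those of GENCODE 29 on GRCh38, version included, from which positions, lengths and sequences were taken. Symbols of other genes came from a table of gene names and, for identifiers it lacked, from GENCODE 29. Of the 67008 identifiers, 24655 had no symbol from either source.

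The test was run with edgeR 4.0.16 under R 4.3.3 (filterByExpr at its defaults, TMM, quasi-likelihood test, Benjamini-Hochberg adjustment over 14303 genes, threshold 0.05). Standard errors are the log2 fold change over the root of the F statistic. No library was a copy of another, since the chi-square between the libraries of a group, over its degrees of freedom, was 25.4 in Ctrl and 61.6 in shSTAU1. A count of 0 was read against a floor of 3 counts. Shares have 95% Wilson intervals (SciPy 1.17.1, Python 3.11.15), and intervals and floors cover counting error only. Alternatives were DESeq2 1.42.0, limma-voom (limma 3.58.1), no filter on low counts, plain library sizes without TMM, scaling from the genes outside the mitochondrial chromosome, the replicate number as a block, and leaving out each library. The models were also run on simulated counts, with changes larger than those of the mitochondrial genes and no gap between replicates. That run does not bear on changes of the size seen in these genes.

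The members and the lists were chosen with earlier results of these data known. Named were all 37 mitochondrial genes, 15 fixed genes of the expression machinery, up to 5 partners past the threshold in each direction, and the 5 nuclear copies with a mean of at least 10 counts. TOP1MT and METTL15 were named after their values were seen, because DESeq2 called them. The values of 1 partner that passed are not reported here.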

Additional observations from a re-analysis of the deposited data

How the results depend on the processing

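Of the 15 tested mitochondrial genes 0 passed, and 0 passed with plain library sizes, with limma-voom, without a filter on low counts (26 tested) or with scaling from the genes outside the mitochondrial chromosome. The number at an unadjusted p under 0.05 was 4 in edgeR and DESeq2 and 3 with limma-voom or without a filter. Over all genes, 372 passed, against 1449 with DESeq2, 11 without a filter, 4087 with the replicate block and 0 to 2780 with a library left out. DESeq2 gave 1 mitochondrial gene, 5 genes of the expression machinery and 22 nuclear partners, against 10.1% of all tested genes, and without a filter the partners went from 5 to 0. A fit with a library left out has 1 library in a group, so its numbers of genes passed are descriptions only. In each of these lists, as over all genes, the most genes passed without shSTAU1 replicate 1. Leaving out each library gave 0 to 9 mitochondrial genes, 0 to 9 of the machinery and 0 to 58 partners.

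The difference in the share of counts on mitochondrial genes was -0.82 percentage points, from -1.09 to -0.55 with a library left out, and -0.019 when both rRNA genes were taken out of the sum and the total.

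The labels number the libraries in sets of 1 Ctrl and 1 shSTAU1 library, but no source says that a number marks a batch or a culture. Deviations from the group means correlated at 0.27 between libraries of the same number, over all tested genes. With the replicate number as a block, 9 mitochondrial genes passed, 1 higher (MT-CO3) and 8 lower (MT-RNR1, MT-RNR2, MT-ND1, MT-ND2, MT-CO1, MT-CO2, MT-ND4 and MT-ND5), against 28.6% of all tested genes, as did 15 of the machinery and 64 partners.

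With a library left out, values crossed 0 for MT-RNR1 (-0.99 to 0.30), MT-CO1 (-0.93 to 0.15), MT-CO2 (-0.85 to 0.11), MT-ND3 (-0.61 to 0.17), MT-ND4L (-0.91 to 0.17), MT-ND6 (-0.48 to 0.061), MT-ATP6 (-0.26 to 0.61), MT-CO3 (-0.11 to 0.93) and MT-CYB (-0.23 to 0.53). MT-RNR2, MT-ND1, MT-ND2, MT-ND4, MT-ND5 and MT-ATP8 kept their sign. Apart from the share, whose change follows from its construction, the cause was not tested.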
